A study of Mus musculus with 4 samples.

Results

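The genes described here are 9 chemokine receptor genes of the mouse, Ccr9, Ccr2, Ccr4, Ccr6, Ccr8, Cxcr3, Cxcr4, Cxcr6 and Cx3cr1, out of 21883 protein-coding genes on the nuclear chromosomes. They are some of the members of 1 receptor family, and they were chosen with earlier results of these data known. A ChIP-seq peak was counted for a gene when its midpoint lay in the RefSeq gene body or within 50 kb on either side. The peaks came from 2 streptavidin pull-downs of the transcription factor PLZF from thymocytes of C57BL/6 mice, with 1 library in each group. PLZF is a zinc finger protein that natural killer T cells need to acquire their effector character during development. Transgenes for PLZF and for BirA, the biotin ligase, were present in all mice. The library labelled Tg thy came from PLZF tg/BirA tg mice. The library labelled NKT came from PLZF tg/BirA tg/Valpha14 tg mice, whose additional transgene is named for the alpha chain that defines the receptor of invariant natural killer T cells. Both libraries are labelled as thymocytes, and the labels name no sorting step, age or promoter of the transgenes and do not say how many animals were pooled. NKT is thus the name of a library. Mice lacking the PLZF transgene were not among the samples used here, so binding of PLZF and nonspecific pull-down cannot be told apart at any peak below.

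Chemokine receptors are G protein-coupled receptors that steer leukocytes along gradients of small secreted proteins, the chemokines. In the thymus, CXCR4 and CCR9 read the stromal chemokines CXCL12 and CCL25 and help to place developing thymocytes, while CCR4 is known from thymocytes that enter the medulla. CXCR6, the receptor for CXCL16, is a known surface marker of natural killer T cells. CXCR3, CCR6, CCR2, CCR8 and CX3CR1 are better known from effector, memory or innate cells.

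The Tg thy list held 5198 peaks with a median score of 110.8, and the NKT list held 4246 with a median score of 73.8. The score is the value deposited with each peak. Its scale is stated in no source used here, it can depend on sequencing depth, which is unknown, and it ranks peaks only within a list. With 1 library per group no value below has a replicate error, and no test between the libraries was possible.

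Peaks lay in the windows of 4 of the 9 genes, Ccr9, Cxcr6, Ccr4 and Cxcr4, and these were the same 4 genes in both lists. Ccr9 had the highest-scoring sites, a pair of peaks upstream of the gene, and 1 of these sites also fell just inside the window of Cxcr6. Of the 9 genes, Cxcr4 was the only one with a peak in its body. The peaks counted for Ccr4 lay inside the neighbouring genes Glb1 and Trim71. Ccr2, Ccr6, Ccr8, Cxcr3 and Cx3cr1 had no peak in either list.

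The 4 genes make 44.4% of the 9. Among all protein-coding genes, 30.3% had a peak by the same rule in the Tg thy list, 26.3% in the NKT list and 20.6% in both. Among the 12550 protein-coding genes no longer than the longest of the receptor genes, the shares were 27.9% and 24.3%. With 9 genes each gene stands for 11.1% of the group, and Ccr9 and Cxcr6 counted 1 site between them, so a difference of this size rests on 1 or 2 genes, and it was not tested. With each peak given only to its nearest protein-coding gene within 50 kb, 2 of the 9 genes, Ccr9 and Cxcr4, kept a peak in each list, against 13.2% (Tg thy) and 11.3% (NKT) of all protein-coding genes. With 10 kb in place of 50 kb, 1 of 9 genes had a peak in each list, against 15.6% and 13.0%. With 100 kb, 7 of 9 and 5 of 9 had one, against 41.6% and 37.2%. With the top 50% of each list by score, 4 of 9 had one in each, against 18.2% and 15.8%. With the top 1000 peaks, 4 of 9 had one in the Tg thy list and 2 of 9 in the NKT list, against 7.77% and 8.12%.

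The sequences used for these loci are the stretches just before the start sites, and they are shown for the genes that were nearest to their own peaks, Ccr9 and Cxcr4. Each is the 250 bases upstream of the RefSeq start site (GRCm38.p6, the assembly that mm10 names), 5′ to 3′ on the strand of the gene, with any match to 4 short motifs in capitals. The motifs, searched on both strands, were ACCGGAAG for ETS factors, TGTGGTT for RUNX factors, CAGGTG for E-box factors and CTTTGAT for TCF1, and none of the 4 is contained in another.
Ccr9, chr9:123766961-123767210, plus strand: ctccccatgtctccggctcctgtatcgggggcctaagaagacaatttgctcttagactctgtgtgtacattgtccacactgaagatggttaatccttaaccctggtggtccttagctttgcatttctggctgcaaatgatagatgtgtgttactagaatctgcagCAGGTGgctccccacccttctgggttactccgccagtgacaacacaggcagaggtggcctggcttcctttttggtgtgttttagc
Cxcr4, chr1:128592300-128592549, minus strand: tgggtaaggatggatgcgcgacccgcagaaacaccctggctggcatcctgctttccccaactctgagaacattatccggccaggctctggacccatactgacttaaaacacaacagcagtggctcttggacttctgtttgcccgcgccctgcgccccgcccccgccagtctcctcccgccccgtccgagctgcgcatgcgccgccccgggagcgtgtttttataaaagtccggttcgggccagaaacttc
The capitals in Ccr9 mark an E-box match whose first base lies 85 bases before the start site. The Cxcr4 stretch held none of the 4 motifs. An E-box match of this kind was present in 20.2% of the 32851 promoter windows of the table (250 bases before to 50 after a start), so a match in 1 window is a description and no site.

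No peak of either list overlapped the promoter window of any of the 9 genes. Over all 32851 promoter windows, 2.33% were overlapped by a Tg thy peak and 1.7% by an NKT peak. The Cxcr4 window came closest, with the edge of its nearest Tg thy peak 702 bp away and that of its nearest NKT peak 1067 bp away. For Ccr9 these distances were 9590 and 9737 bp. The receptor peaks thus lay outside the sequences printed above.

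**Figure D1:**
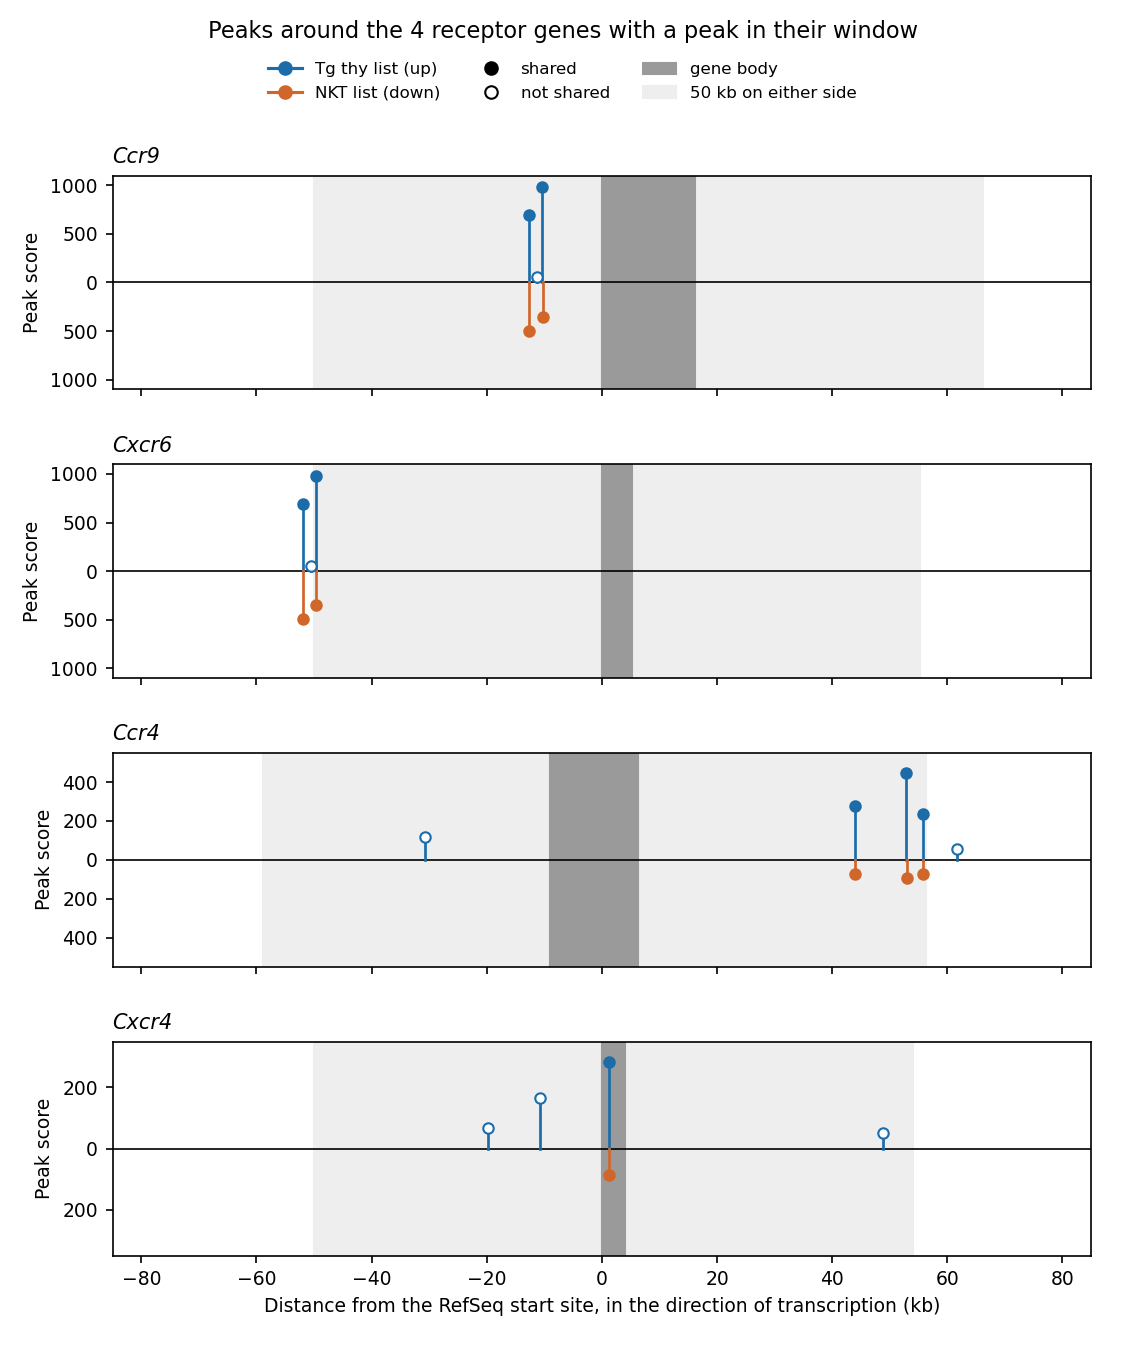
Peak scores (vertical axis, Tg thy list upward, NKT list downward) against the distance of the peak midpoint from the RefSeq start site in kb, for the 4 receptor genes with a peak in their window. Filled points are peaks that overlap a peak of the other list, open points those that do not, and dark and light grey mark the gene body and the 50 kb on either side. Every NKT point is filled, and the open points all belong to the Tg thy list.

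Ccr9 encodes the receptor for CCL25. It spans 123767211 to 123783457 on chromosome 9 (16.2 kb, plus strand). The Tg thy list held 3 peaks upstream of it, at 123754176 to 123754907 (score 694), 123755835 to 123756059 (score 52.9) and 123756268 to 123757371 (score 977). The NKT list held 2, at 123754378 to 123754867 (score 496) and 123756583 to 123757224 (score 353). All lay outside annotated gene bodies, between 10.3 and 12.7 kb from Ccr9, which was the nearest protein-coding gene. The closest gene of any kind was the noncoding gene Gm17021, which overlaps the start of Ccr9 and lay 7.80 to 10.2 kb from these peaks.

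The distal and the proximal site of this pair were among the highest in both lists, but not in the same order. In the Tg thy list the proximal site ranked 48 and the distal site ranked 127 of 5198 peaks. In the NKT list the distal site ranked 74 and the proximal site 176 of 4246. Their NKT midpoints were 2.28 kb apart, and each NKT peak lay wholly within its Tg thy counterpart with midpoints 81.0 and 84.0 bp apart. The small peak between them, of 225 bp, was listed only for the Tg thy library and had a score close to the lowest of that list, 50.03. It did not overlap an NKT peak but had the proximal NKT site within 1 kb.

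Measured by its highest score, Ccr9 stood above 98.5% of the 6625 protein-coding genes with a peak in the Tg thy list, and above 97.4% of the 5760 such genes in the NKT list. By the same rule 98 genes had a higher score in the Tg thy list and 146 in the NKT list. At least 3 peaks, as at Ccr9 in the Tg thy list, were counted for 6.18% of all protein-coding genes there.

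Cxcr6 encodes the receptor for CXCL16, a membrane-anchored chemokine. It spans 123806477 to 123811754 on chromosome 9 (5.28 kb, plus strand), starts 23.0 kb beyond the end of Ccr9 and lies within the body of Fyco1. The proximal Ccr9 site was its only peak in each list, 49.7 kb away in the Tg thy and 49.6 kb away in the NKT list. The other sites fell just beyond 50 kb, the small peak at 50.5 kb and the distal site at 51.9 kb in both lists. Every peak of either list within 100 kb of Cxcr6 lay nearer to Ccr9. The windows of the protein-coding genes Lztfl1 and Fyco1 held the same site, so it was counted for 4 genes in all.

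Ccr4 encodes the receptor for CCL17 and CCL22. It spans 114490316 to 114505476 on chromosome 9 (15.2 kb, minus strand), and the RefSeq table of promoters puts its start site inside this span. The Tg thy list held 4 peaks in its window. Downstream of the gene were peaks at 114440439 to 114441086 (score 235), 114443227 to 114444100 (score 447) and 114452238 to 114452796 (score 275), 37.8 to 49.6 kb away. All 3 lay inside Glb1, which encodes the lysosomal beta-galactosidase, and the last also inside the noncoding gene Gm30254. Upstream of Ccr4, 21.9 kb away, was a peak at 114527203 to 114527544 (score 118) inside Trim71, which encodes an RNA-binding ubiquitin ligase. A further Glb1 peak of score 53.5 lay 55.3 kb from Ccr4 and so outside its window.

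The NKT list held the same 3 downstream sites and no upstream one. They lay at 114440621 to 114440876 (score 74.0), 114443455 to 114443725 (score 95.8) and 114452353 to 114452714 (score 74.4). The middle site had the highest score of the 3 in both lists, with 93.5% of Tg thy peaks and 63.3% of NKT peaks scoring lower. The other 2 scored above 80.0% and 84.7% of Tg thy peaks, and above 50.1% and 50.5% of NKT peaks. Each of the 3 NKT peaks lay within its Tg thy counterpart, and the midpoints of the outer pairs were only 14 and 16.5 bp apart. At least 4 peaks, as counted for Ccr4 and for Cxcr4 in the Tg thy list, were found for 3.08% of all protein-coding genes there, and at least 3, as for Ccr4 in the NKT list, for 4.54%.

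Cxcr4 encodes the receptor for CXCL12, which retains and positions early thymocytes. It spans 128588199 to 128592299 on chromosome 1 (4.10 kb, minus strand). Inside the gene were a Tg thy peak at 128590693 to 128591548 (score 284) and an NKT peak at 128590868 to 128591183 (score 86.2). Their midpoints lay 1.18 and 1.27 kb downstream of the start site. Exons and introns were not used here, so the part of the gene that holds the peak is not given.

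The Tg thy list had 3 further peaks at Cxcr4, none of them shared. Upstream of the start site were peaks at 128602746 to 128603363 (score 166, 10.8 kb from the gene) and 128611839 to 128612120 (score 66.7, 19.7 kb), both outside annotated genes. Downstream of the gene was a peak at 128543250 to 128543511 (score 52.4, 44.8 kb) inside the noncoding gene Gm41950. Cxcr4 was the only protein-coding gene whose window held any of these 4 sites, in contrast to those at Ccr4 and Cxcr6. The intragenic peak scored above 85.4% of its list in the Tg thy library and above 57.9% in the NKT library. The nearest other peak of the same list was 11.9 kb from it in the Tg thy list and 760.0 kb from it in the NKT list.

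Across the 3 neighbourhoods there were 11 distinct Tg thy peaks and 6 distinct NKT peaks. All 6 NKT peaks overlapped a Tg thy peak by at least 1 bp, where 60.7% of the whole NKT list did. Of the 11 Tg thy peaks, 6 overlapped an NKT peak, where 45.7% of the whole list did. The 6 shared peaks had Tg thy scores of 235 to 977 and the 5 unshared ones scores of 52.4 to 166, so these ranges did not overlap. In the whole list, too, more of the high-scoring peaks were shared. Between scores of 200 and 500, 80.8% of Tg thy peaks were shared, and between 50 and 100, 22.6% were. At the receptor genes 4 of 4 and 0 of 3 peaks in these classes were shared. Between scores of 100 and 200, 47.0% of Tg thy peaks were shared, and 0 of 2 at the receptor genes. Between 500 and 1000, these values were 98.7% and 2 of 2. Each class held few receptor peaks, so no departure from the list can be read from these counts, and none was tested. Requiring that a pair overlap by 50% of each peak left 3 shared sites.

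All 6 NKT peaks lay wholly within their Tg thy partners, where 64.8% of all shared NKT peaks did. NKT peaks at the receptor genes were 256 to 642 bp wide and Tg thy ones 225 to 1104 bp, against list medians of 224.0 and 387.0 bp. The midpoints of the 6 pairs were 14 to 95 bp apart. The median offset over all shared peaks was 57.0 bp counted from the Tg thy list and 62.0 bp from the NKT list.

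**Figure D2:**
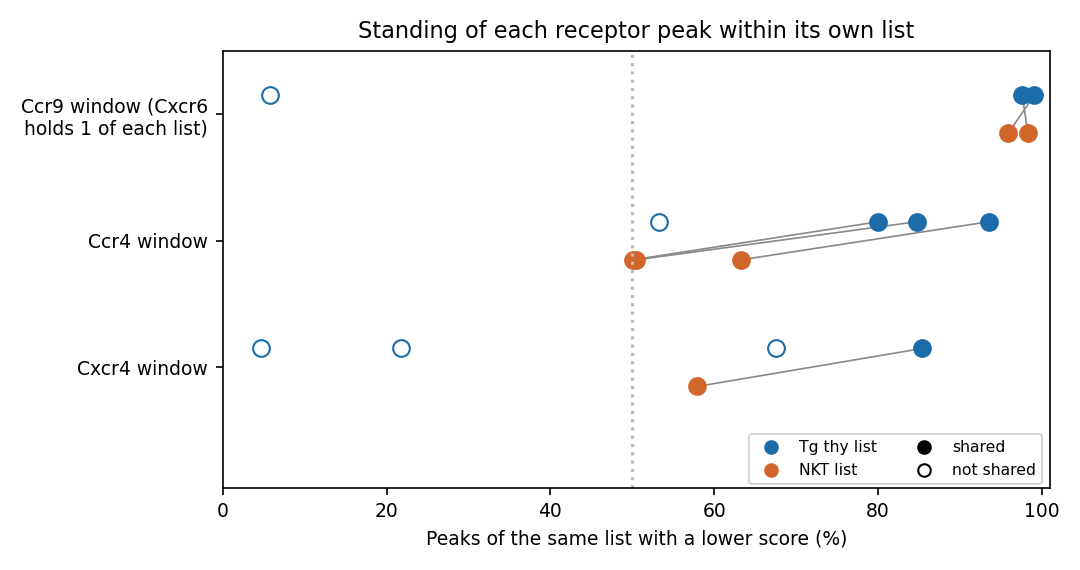
Each distinct peak at a receptor gene, placed by the percentage of peaks of its own list that score lower (horizontal axis), in rows for the Ccr9, Ccr4 and Cxcr4 windows, with grey lines joining overlapping peaks. The shared Ccr9 sites stand above 95.9% or more of either list, while the shared Ccr4 and Cxcr4 sites stand at 80.0 to 93.5% in the Tg thy list and at 50.1 to 63.3% in the NKT list, and since the lists differ in length and their depth is unknown the joined points show no change.

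By position, 6 of the 11 Tg thy peaks lay over 10 kb from the nearest protein-coding gene, where 25.4% of the nuclear peaks of that list did. In the NKT list this held for 2 of 6 peaks, where 27.1% of the list did. Another peak of the same list lay within 5 kb of 5 of the 11 Tg thy and 4 of the 6 NKT peaks, where 29.9% and 29.6% of the lists had such a neighbour. These are the sites near Ccr9 and 2 of the 3 sites within Glb1.

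The 5 receptor genes without a peak differed in how far the nearest one was. For Cxcr3, the receptor for CXCL9 and CXCL10 (101731535 to 101734147, chromosome X), the nearest peak was a shared site 91.6 kb away in the Tg thy and 91.5 kb away in the NKT list. It lay at the boundary of Ogt, within 0.0695 kb, with scores of 227 and 141. For Cx3cr1, the fractalkine receptor (120048683 to 120068296, chromosome 9), a Tg thy peak of score 92.0 lay 55.1 kb away, just outside the window. The same peak was the nearest to Ccr8, the receptor for CCL1 (120092133 to 120094906), at 98.6 kb. It lay inside the noncoding gene Gm33800 and 8.81 kb from Csrnp1, its nearest protein-coding gene. The nearest NKT peak was 341.0 kb from Cx3cr1 and 315.0 kb from Ccr8.

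Ccr2 and Ccr6 were farthest from any Tg thy peak. Ccr2, the receptor for CCL2 (124101918 to 124109140, chromosome 9), had its nearest Tg thy peak at 173.0 kb, 33.0 kb from another receptor gene, Ccr1, and its nearest NKT peak at 148.0 kb. Ccr6, the receptor for CCL20 (8236041 to 8258519, chromosome 17), had none within 609.0 kb in the Tg thy and 114.0 kb in the NKT list. A gene without a listed peak may still carry signal below the lowest score of these lists, 50.03 and 50.02.

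The rest of the chemokine system was described by the same rule through 3 lists of family members. Of 14 other chemokine receptors, 3 had a peak in the Tg thy list and 4 in the NKT list, 3 of them in both. This is 21.4% and 28.6%, beside 30.3% and 26.3% of all protein-coding genes. The family was split into these 14 and the 9 genes above with earlier results of these data known. A difference between the 2 groups can therefore come from that choice, and it was not tested. The receptor Ccr7, which guides thymocytes into the medulla, had 5 and 2 peaks with highest scores of 303 and 77.3, 7.51 and 7.19 kb away. Cxcr5, the follicular receptor, had highest scores of 192 and 133, and Ccr1 of 106 and 85.03, the Tg thy value first. Cxcr2, a receptor of neutrophils, was in the NKT list alone, through a peak of score 51.0 that lay 28.6 kb away and nearer to Rufy4. None of these scores reached that of Ccr9 in its list. With gene bodies only, 0 of the 14 had a peak in the Tg thy list and 1 in the NKT list. Of all protein-coding genes, 8.37% and 7.18% did.

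Of 29 chemokine ligand genes, 5 had a peak in the Tg thy list (17.2%) and 1 in the NKT list (3.45%), beside the same 30.3% and 26.3% of all protein-coding genes. The only one with a peak in both was Ccl28, whose highest scores of 55.1 and 138 belonged to peaks nearer to Tmem267. In the Tg thy list alone, Ccl3 and Ccl4 counted 1 common peak of score 85.6. Cxcl9 and Cxcl10 counted another of score 69.4, which lay nearer to Art3. The ligands of the 4 receptors with peaks, Ccl25, Cxcl16, Ccl17, Ccl22 and Cxcl12, had none in their windows in either list.

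Genes that act downstream of chemokine receptors had peaks at 17 of 26 in the Tg thy list (65.4%) and 13 of 26 in the NKT list, all 13 being among the 17, beside 30.3% and 26.3% of all protein-coding genes. The highest Tg thy scores were those of Gnai3, an inhibitory G protein subunit (428, and 119 in the NKT list), Pik3r5, a regulatory subunit of PI3 kinase gamma (376 and 163), Prex1, a Rac exchange factor (346 and 154), and Rgs16, which dampens G protein signals (341 and 72.7). The Gnai3 peak lay nearer to Gpr61. Grk2, a kinase that desensitises receptors (162), and Plcb3, a phospholipase (119, with the peak nearer to Fermt3), had peaks in the Tg thy list alone. Some genes of this list are long, and a long gene body gives a wider window.

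**Figure D3:**
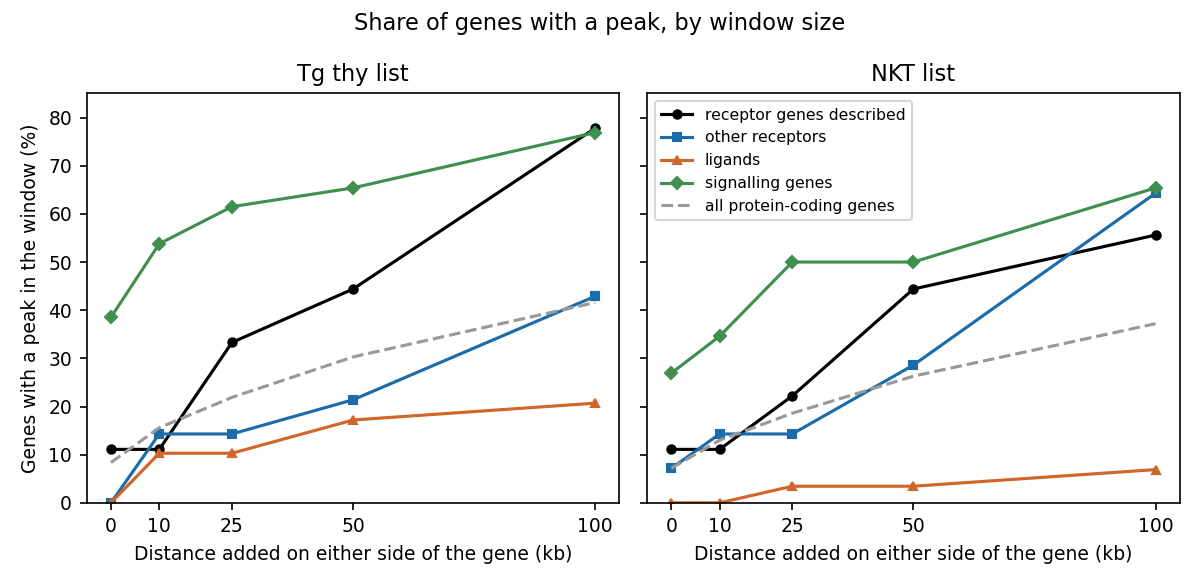
Percentage of genes with at least 1 peak (vertical axis) against the distance added on either side of the gene body in kb (horizontal axis), for the 9 receptor genes, the 3 other lists and all protein-coding genes, in the Tg thy list (left) and the NKT list (right). The receptor genes go from 11.1% at 0 and 10 kb to 44.4% at 50 kb in both lists and reach 77.8% and 55.6% at 100 kb, while all protein-coding genes go from 8.37% and 7.18% at 0 kb to 41.6% and 37.2% at 100 kb.

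The share of receptor genes with a peak therefore rested on the window. With gene bodies only it was 11.1% in both lists, above the 8.37% and 7.18% of all protein-coding genes. At 10 kb it was still 11.1%, below 15.6% and 13.0%, and at 25 kb and more it was above the share of all protein-coding genes. With gene bodies, at 10 kb, and at 25 kb in the NKT list, the difference was smaller than the 11.1% that 1 gene makes. None of these differences was tested. At 25 kb, 3 of 9 genes had a peak in the Tg thy list and 2 of 9 in the NKT list, against 21.9% and 18.6% of all protein-coding genes. The count differed between the lists by Ccr4, through the Trim71 peak. At 100 kb, Cxcr3 was added in both lists, and Ccr8 and Cx3cr1 in the Tg thy list.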

How the data were processed

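The 2 streptavidin ChIP libraries among the 4 samples were used, and the 2 inputs were not used here. The authors deposited 1 peak list per library, in which each peak carries a score of unstated scale. Per the submitters' processing notes the build was mm10 and the tools were Bowtie, Picard and HOMER. Peak names begin with MACS. Tool versions, and whether the inputs served as control, are not stated in the labels or files. The number of reads is unknown, so no interval could be given for a peak.

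Starts were raised by 1 base. Gene spans (body plus 50 kb on either side) and start sites came from RefSeq tables of GRCm38.p6. All 9 symbols matched, and 1 of the other symbols, Cxcl11, was not found as a protein-coding gene. Shared peaks overlapped by at least 1 bp. Nuclear peaks exclude mitochondrial DNA. Scripts ran in Python 3.11.15 with pandas 2.3.3 and were tested on simulated data. No test was made. The genes and lists were chosen with earlier results of these data known. All 9 genes were named, and of each other list up to 4 genes with a peak in both lists, by Tg thy score, and up to 2 with a peak in only 1. Ccl4 and Cxcl10 were added since they count the same peaks as Ccl3 and Cxcl9. Ligands of the receptors with peaks were added after their values were seen. Alternatives were other windows, score limits, overlap rules and nearest-gene assignment.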

Additional observations from a re-analysis of the deposited data

How the results depend on the processing

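The counts depended on the window more than on how an overlap with it was defined. Genes with a peak (Tg thy, NKT, both lists) numbered 4, 4 and 4. They numbered 1, 1 and 1 with gene bodies only or with 10 kb, 3, 2 and 2 with 25 kb, 7, 5 and 5 with 100 kb, 4, 2 and 2 with the top 1000 peaks, and 2, 2 and 2 with nearest-gene assignment. Distinct peaks numbered 11 and 6. They numbered 1 and 1 with gene bodies or 10 kb, 7 and 3 with 25 kb or nearest-gene assignment, and 5 and 2 with the top 1000 peaks. The percentage of all protein-coding genes with a peak was 8.37% and 7.18% with gene bodies, 15.6% and 13.0% with 10 kb, 18.2% and 15.8% with the top 50% of peaks by score, 7.77% and 8.12% with the top 1000, and 13.2% and 11.3% with nearest-gene assignment. Smaller windows and fewer peaks lower these counts by construction. With a reciprocal overlap of 50%, shared peaks fell from 6 to 3 in each list, and with midpoints within 1 kb they were 7 and 6. The top 50% of peaks by score kept Ccr9, Cxcr6, Ccr4 and Cxcr4 in both lists, as did counting any overlap of at least 1 bp with the window.

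The counts of the other 3 lists, with alternatives chosen after seeing the data, lay between 0 and 9 for the other receptors, 0 and 6 for the ligands and 7 and 20 for the signalling genes. No paired analysis was possible because each group had 1 library. Without read counts, depth cannot be weighed.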

Other observations

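Among the receptor peaks, neighbouring sites listed in both libraries lay only upstream of Ccr9 and inside Glb1. The order by score differed between the lists for the paired sites upstream of Ccr9. How often such pairs differ in order over the whole lists was not examined. The distal site had a score of 694 in the Tg thy list and 496 in the NKT list, and the proximal site, the one also within 50 kb of Cxcr6, had 977 and 353. The distal peaks were 732 and 490 bp wide and the proximal ones 1104 and 642 bp, so the proximal peak was the wider one in both lists. At the 3 Glb1 sites near Ccr4 the order by score was the same in both lists, but the outer sites were nearly level in the NKT list (74.0 and 74.4). Each list comes from 1 library, so whether the order at Ccr9 would recur in another library was not tested.

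The Tg thy peaks 10.8 and 19.7 kb upstream of Cxcr4 had no overlapping NKT peak, and the NKT site inside Cxcr4 had no other NKT peak within 760.0 kb. Of Tg thy peaks with scores of 100 to 200, the class of the first of these peaks (166), 47.0% overlapped an NKT peak.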
